A study of Caenorhabditis elegans with 24 samples.

Results

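The cathepsin B genes cpr-1, cpr-3, cpr-4, cpr-5 and cpr-6 of the nematode Caenorhabditis elegans are described here, 5 of the 16927 genes in an RNA-seq table of whole worms. They were taken by their symbols, and all 5 passed the filter on low values. Worms were raised from eggs, at 20 °C and for 2.5 days, until the last larval or young adult stage, on bacteria that carry RNAi against a chosen gene. The 8 groups of 3 libraries each crossed 2 strains, the wild type N2 and VC3201, which the labels give as an atfs-1 mutant without naming the allele, with 4 RNAi foods. The control food was control RNAi bacteria alone, the cco-1 food 50% cco-1 and 50% control bacteria, the elt-2 food 50% elt-2 and 50% control bacteria, and the combined food 50% of each of cco-1 and elt-2. A key sheet deposited by the authors gives the elt-2 bacteria as 25% of the food instead, so the dose of elt-2 RNAi is uncertain between these 2 values.

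Cathepsin B enzymes are cysteine proteases of the papain family, made as inactive precursors and active in the acid lumen of lysosomes or, in the worm gut, as digestive enzymes, with cpr-1 known as a protease gene expressed in the intestine and cpr-4 as the gene of a secreted cathepsin B. ELT-2 is the GATA transcription factor that maintains expression of most intestinal genes, ATFS-1 turns on the unfolded protein response of mitochondria, and cco-1 codes for a component of cytochrome c oxidase, so that its RNAi impairs respiration. The comparisons ask which cathepsin B transcripts change on cco-1 RNAi, on elt-2 RNAi, and in the strain labelled an atfs-1 mutant. Respiration and ELT-2 protein were not measured in these data. With bulk RNA from whole worms, fewer intestinal cells and less transcript per cell cannot be told apart.

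Levels are in CPM, read counts relative to the size of each library, deposited by the authors in a normalized form. Every library had the same sum, and the sorted values of all libraries lay within 1% of each other at 52.6% of ranks, so the values were taken as quantile-normalized. Differences are given as log2 fold changes of CPM + 1 with a standard error (SE) from limma, 3 libraries a group, and a gene is said to rise or fall where the Benjamini-Hochberg adjusted p over 14561 genes was under 0.05. The targeted transcripts followed their labels: cco-1 stood at 63.96 to 134.7 CPM in the 12 libraries with cco-1 RNAi and at 214 to 354 in the others, atfs-1 at 71 to 85.5 CPM in N2 and 20.0 to 29.3 in VC3201. The cco-1 transcript was lower on both RNAi than on cco-1 RNAi alone. Its means were 72.9 against 127.6 CPM in N2 and 67.4 against 124.8 in VC3201 (-0.80 and -0.88, adjusted p = 7.96e-10 and 2.08e-11, limma). Comparisons that involve these 2 foods thus set unequal cco-1 levels side by side. The elt-2 transcript was lower on elt-2 RNAi in each strain, at 9.85 to 11.6 against 15.96 to 19.2 CPM on control in N2 and at 6.52 to 15.98 against 16.5 to 17.7 CPM in VC3201. Nothing in the labels says whether the replicates came from separate cultures, so p-values measure only the spread between these libraries.

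Markers of the worms' state moved with the groups in which the cathepsin B genes changed most. The 6 yolk protein genes summed to 69400 to 69790 CPM in VC3201 on control, to 387.6 to 481 on elt-2 RNAi and to 234.2 to 262.1 on both RNAi, against 73580 to 73850, 25750 to 26980 and 21920 to 22310 in N2. The 11 cuticle and molting markers summed to 76.95 to 86.99 CPM in VC3201 on control and to 1002 to 1124 on elt-2 RNAi, where all 11 rose. In N2 they stood at 233.1 to 398.2 and 241.6 to 324.4 CPM. The 18 intestinal markers summed to 1329 to 1375 CPM on control, 1898 to 2014 on cco-1 RNAi, 1057 to 1081 on elt-2 RNAi and 1519 to 1560 on both in N2, and to 1190 to 1424, 2494 to 2590, 1966 to 2076 and 2010 to 2048 CPM in VC3201. Of them 1 had a mean under 1 CPM on both RNAi in each strain. On elt-2 RNAi 3 rose and 13 fell in N2, where 26.2% of all genes rose and 21.8% fell, and 7 rose and 10 fell in VC3201, near the 36.4% and 49.4% of all genes. Muscle, neuron and germline markers were also detected in all groups, and the part that stage or tissue makeup has in any cathepsin B difference was not tested.

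The genes cpr-1, cpr-3, cpr-4 and cpr-5 lie on chromosome V and cpr-6 lies on X (WBcel235). The cpr-5 gene is at V:1132598-1134036 on the minus strand, cpr-4 at V:6614674-6615851, cpr-1 at V:11975551-11976756, cpr-3 at V:15296834-15298700 on the minus strand, and cpr-6 at X:6607207-6609045. Each is protein-coding with 1 annotated transcript, and their exons span 1078 bases in cpr-1, 1369 in cpr-3, 1129 in cpr-4, 1205 in cpr-5 and 1260 in cpr-6. The cpr-6 gene has 8 exons, against 2 to 4 in the others. A piRNA gene lies within cpr-4 on the opposite strand, and the labels do not say whether reads were counted by strand.

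The 5 genes had very different ranges over the 8 groups. Group means ran from 54.7 to 603 CPM for cpr-1, from 35.7 to 454 for cpr-4, from 6.66 to 905 for cpr-3, from 0.378 to 1019 for cpr-5 and from 0.136 to 721 for cpr-6. The genes with the widest ranges were ordered oppositely by food: cpr-3 was lowest on control and highest on both elt-2 foods, whereas cpr-5 and cpr-6 were lowest on the elt-2 foods. Libraries of neighbouring groups in each order mostly did not overlap. The neighbours that did were VC3201 on cco-1 RNAi and N2 on control for cpr-1, the control groups of both strains for cpr-3 and for cpr-6, and N2 on elt-2 RNAi with VC3201 on elt-2 RNAi or on both for cpr-4. For cpr-5 they were the cco-1 groups of both strains and the 2 VC3201 elt-2 groups, and for cpr-6 also the 2 elt-2 groups within each strain.

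**Figure D1:**
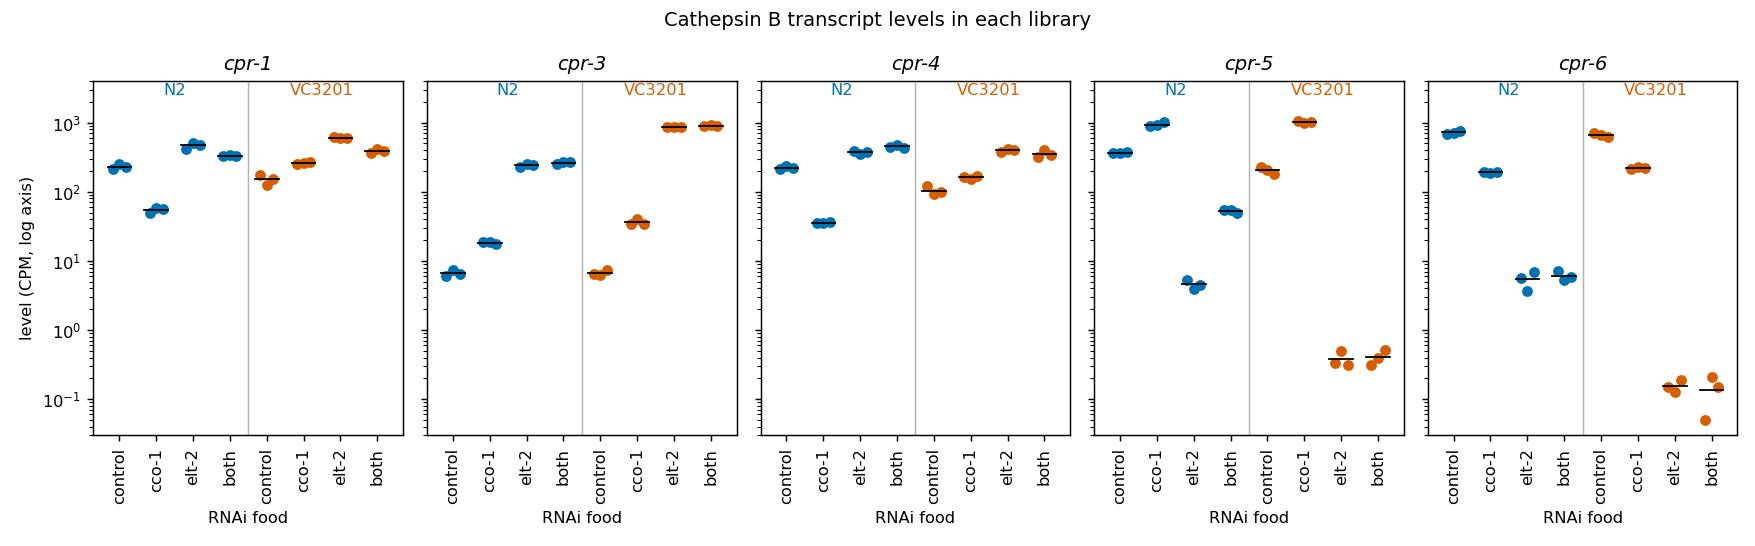
Level of each cathepsin B gene in CPM (log axis) in every library, with N2 in blue and VC3201 in orange; dots are libraries and bars are means of 3. The cpr-5 and cpr-6 dots drop on the elt-2 foods, below 1 CPM in VC3201, while cpr-3 climbs to 859 to 922 CPM in VC3201.

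On cco-1 RNAi alone the cathepsin B genes of N2 changed in both directions. In the order of replicates 1 to 3, cpr-5 stood at 362, 363 and 377 CPM on control and at 896, 911 and 1009.7 on cco-1 RNAi. Every cco-1 library was above every control library, a rise of 1.35 on the log2 scale (SE 0.0777, adjusted p = 3.43e-14, limma). The other gene that rose, cpr-3, was a minor transcript in both groups, at 5.98, 7.47 and 6.54 CPM on control and 18.8, 18.7 and 17.7 on cco-1 RNAi (1.34, SE 0.0636, adjusted p = 4.09e-16, limma). The secreted cathepsin B gene cpr-4 fell furthest, from 212, 234 and 223 CPM to 35.6, 35.0 and 36.3 CPM (-2.61, SE 0.0781, adjusted p = 1.09e-20, limma). For the intestinal protease gene cpr-1 the control libraries held 213, 254 and 228 CPM and the cco-1 libraries 49.9, 58.6 and 55.5 (-2.06, SE 0.0843, adjusted p = 1.28e-17, limma). With cpr-6, the most abundant of the 5 on control, values went from 697, 718 and 747 CPM to 191, 186 and 193 (-1.92, SE 0.112, adjusted p = 5.14e-14, limma). Thus 2 of the 5 rose and 3 fell, where 17.5% of all genes tested rose and 16.4% fell, and for none of the 5 did the libraries of the 2 groups overlap, as for 43.6% of all genes. By size of change among 14561 genes, cpr-4 was number 15, cpr-1 number 29 and cpr-6 number 39 from the bottom, and cpr-5 and cpr-3 were numbers 75 and 79 from the top.

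In VC3201 the same food raised 4 of the genes and lowered 1, where 26.9% of all genes rose and 37.1% fell. The cpr-5 level was 226, 206 and 184 CPM on control and 1046, 1002 and 1009.7 on cco-1 RNAi, a rise of 2.31 (SE 0.0777, adjusted p = 4.60e-20, limma). For cpr-3 the values were 6.57, 6.16 and 7.27 CPM against 33.9, 39.7 and 34.2 (2.27, SE 0.0636, adjusted p = 6.20e-22, limma). Both genes that rose in N2 thus rose in VC3201 as well, by more. For cpr-5 the larger rise started from a lower control mean than in N2, 205 against 367.5 CPM. On cco-1 RNAi the cpr-5 libraries of the strains overlapped. The cpr-1 transcript, which fell in N2, was at 175, 124 and 153 CPM on control and 251, 264 and 267 on cco-1 RNAi (0.80, SE 0.0843, adjusted p = 3.71e-09, limma). Likewise cpr-4 stood at 122, 91.7 and 99.0 CPM and then at 163, 154 and 169 (0.64, SE 0.0781, adjusted p = 5.38e-08, limma). Only cpr-6 fell, from 703, 658 and 624 CPM to 211, 229 and 219 (-1.59, SE 0.112, adjusted p = 1.03e-12, limma). In every one of the 5 genes the VC3201 libraries on cco-1 RNAi and on control did not overlap, as for 63.6% of all genes.

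The difference between the strains in the response to cco-1 RNAi passed the test for 4 of the 5 genes, in each case toward a higher response in VC3201, where 16.8% of all genes had a higher and 23.2% a lower response. It was 3.25 for cpr-4 (SE 0.110, adjusted p = 6.55e-19, limma), the log2 fold changes being -2.61 in N2 and 0.64 in VC3201. For cpr-1 it was 2.86 (SE 0.119, adjusted p = 5.28e-17, limma), from -2.06 and 0.80. The strains differed by 0.96 in the rise of cpr-5 (SE 0.110, adjusted p = 5.93e-08, limma) and by 0.92 in that of cpr-3 (SE 0.0900, adjusted p = 2.90e-09, limma). For cpr-6 the difference was 0.33, with a 95% interval of 0.00477 to 0.657 and an adjusted p of 0.0981 (limma), and it passed the threshold in a fit of these 4 groups alone (adjusted p = 0.00164) or with a pseudocount of 5 CPM (adjusted p = 0.0146). Rescaling of the libraries turned the split of all genes that differed from 42.1% to 50.7% higher. Marker lists moved with this difference: 9 of 11 cuticle and molting, 7 of 8 muscle and 10 of 18 intestinal markers had a higher response in VC3201, with 3 intestinal ones lower, and 4 of 6 yolk and 3 of 8 germline markers had a lower one. Of 8 neuron markers 2 were higher. Their part in the result was not tested.

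The strains also differed on the control food. There VC3201 had less cpr-4, cpr-5 and cpr-1 than N2, by -1.10 (adjusted p = 3.45e-12), -0.84 (adjusted p = 7.02e-10) and -0.63 (adjusted p = 6.43e-07, limma). The VC3201 libraries were below every N2 library for all 3, and 53.4% of all genes had no overlap between these groups. Values for cpr-6 were 662 ± 39.4 CPM in VC3201 and 721 ± 25.1 in N2 (SD, n = 3), with a difference of -0.12 (95% interval -0.354 to 0.107), and cpr-3 was at 6.67 ± 0.562 and 6.66 ± 0.751 CPM. So 3 of the 5 were lower and 0 higher, where 22.6% of all genes were lower and 26.7% higher. Between the strains on cco-1 RNAi, cpr-1 was higher in VC3201 by 2.23 (SE 0.0843), cpr-4 by 2.15 (SE 0.0781) and cpr-3 by 0.93 (SE 0.0636), with adjusted p from 4.54e-19 to 7.00e-13 (limma). For cpr-5 the difference there was 0.12 (95% interval -0.0393 to 0.279) and for cpr-6 0.21 (-0.0237 to 0.437), the latter past the threshold under the same 2 alternatives as above (adjusted p = 0.0057 and 0.0223). The libraries of the strains did not overlap for 4 of the 5, all but cpr-5, as for 58.2% of all genes. In this comparison 26.6% of all genes were higher and 29.2% lower in VC3201, and cpr-1 and cpr-4 were numbers 32 and 38 from the top.

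On elt-2 RNAi the 5 genes split into those that collapsed and those that rose, the same way in each strain. In N2, cpr-6 went from the 697 to 747 CPM of control to 5.69, 3.63 and 6.95 CPM, a change of -6.85 (SE 0.112, adjusted p = 8.58e-28, limma). The cpr-5 libraries held 5.28, 3.96 and 4.44 CPM against 362 to 377 on control (-6.06, SE 0.0777, adjusted p = 1.98e-30, limma). These 2 genes stood at number 2 and number 4 from the bottom of all genes tested. The low-level gene cpr-3 rose to 230.4, 252 and 247 CPM, 36.5 times its control mean (a log2 change of 5.0, SE 0.0636, adjusted p = 1.95e-30, limma), number 7 from the top. Smaller rises were seen for cpr-1, to 423, 509 and 479 CPM (1.02, SE 0.0843, adjusted p = 2.50e-11, limma), and for cpr-4, to 391, 351 and 375 CPM (0.74, SE 0.0781, adjusted p = 3.98e-09, limma). The elt-2 RNAi and control libraries did not overlap for any of the 5, as for 53.4% of all genes, and 26.2% of all genes rose and 21.8% fell.

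**Figure D2:**
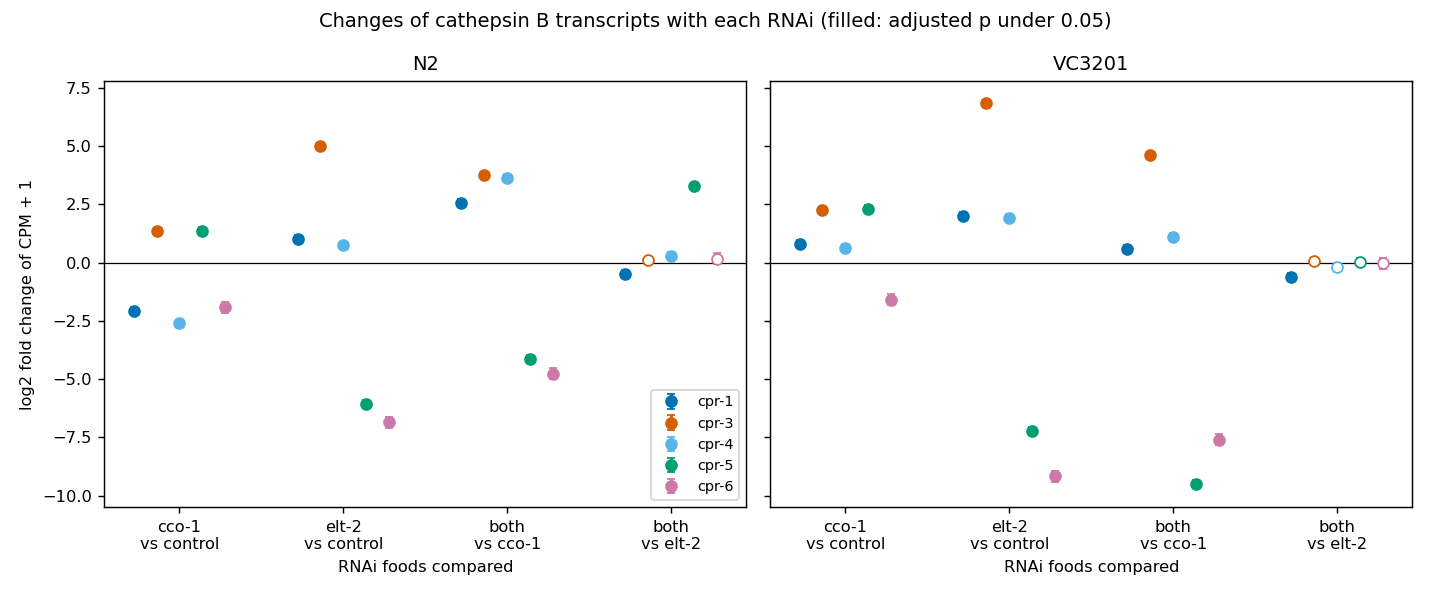
Log2 fold change of CPM + 1 for each cathepsin B gene in 4 comparisons of RNAi foods, in N2 (left) and VC3201 (right); bars are 95% intervals, filled points passed an adjusted p of 0.05. With cco-1 RNAi the points of cpr-1 and cpr-4 lie below 0 in N2 (-2.06 and -2.61) and above 0 in VC3201 (0.80 and 0.64), while with elt-2 RNAi each gene keeps its direction in both strains.

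In VC3201 on elt-2 RNAi the same 3 genes rose and the same 2 fell, where 36.4% of all genes rose and 49.4% fell. None of the 5 had overlapping libraries, as for 86.6% of all genes. The cpr-3 level reached 859, 875 and 869 CPM from a control mean of 6.67 (6.83, SE 0.0636, adjusted p = 2.96e-34, limma). With cpr-1 the libraries held 612, 604 and 593 CPM (2.01, SE 0.0843, adjusted p = 8.28e-19, limma), and with cpr-4 371, 419 and 403 CPM (1.93, SE 0.0781, adjusted p = 3.42e-19, limma). For cpr-1 and cpr-4 the rise started from a control level lower than that of N2. The cpr-5 transcript fell to 0.330, 0.494 and 0.310 CPM (-7.22, SE 0.0777, adjusted p = 6.04e-33, limma). For cpr-6 only 0.151, 0.125 and 0.189 CPM remained (-9.16, SE 0.112, adjusted p = 1.20e-31, limma). Ranked back from the low values, these are 10, 16 and 9 reads of cpr-5 and 4, 3 and 5 reads of cpr-6, so each is known only within wide counting error, with 95% Poisson intervals of 4.80 to 18.4 reads for 10 and 0.619 to 8.77 for 3. At such levels the size of a log2 fold change is set by the pseudocount: that of cpr-6 was -11.3 with 0.1 CPM and -7.01 with 5 CPM added. The median of all genes shifted by -0.18 in this comparison and by -0.013 after rescaling each library by its median ratio, which is small beside each of these changes.

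The response to elt-2 RNAi differed between the strains for all 5 genes, being higher in VC3201 for 3 and lower for 2, where 30.7% of all genes had a higher and 42.1% a lower response. The rise of cpr-3 was greater in VC3201 by 1.83 (SE 0.0900, adjusted p = 3.29e-16, limma), that of cpr-4 by 1.19 (SE 0.110, adjusted p = 1.86e-10) and that of cpr-1 by 0.99 (SE 0.119, adjusted p = 2.65e-08). For cpr-6 the strains differed by -2.32 (SE 0.159, adjusted p = 3.71e-13) and for cpr-5 by -1.17 (SE 0.110, adjusted p = 2.59e-10). Both of these last values depend on the pseudocount. With 0.1 CPM they were -4.27 and -2.45, with 5 CPM they were -0.88 and 0.0027, and with 5 CPM the cpr-5 difference did not pass the test (adjusted p = 0.98). Of the genes that differed, 42.1% were higher, and 51.8% after rescaling. Marker lists moved with this difference too: all 11 cuticle and molting, 6 of 8 muscle, 5 of 8 neuron and 10 of 18 intestinal markers had a higher response in VC3201, and all 6 yolk, 7 of 8 germline, 3 intestinal and 1 neuron marker a lower one, with 1 germline marker higher.

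The levels themselves showed the same separation. On elt-2 RNAi, cpr-5 was 4.56 ± 0.667 CPM in N2 and 0.378 ± 0.101 in VC3201 (SD, n = 3), 12.1-fold lower in the mutant, and cpr-6 was 5.42 ± 1.68 against 0.155 ± 0.0323 CPM. On the log2 scale of CPM + 1 the differences were -2.01 and -2.44 (adjusted p = 3.71e-19 and 1.91e-17, limma), and with a pseudocount of 5 CPM -0.83 and -1.0. The cpr-5 values rest on 98, 90 and 92 reads ranked back in N2 and on 10, 16 and 9 in VC3201. In these libraries 1 CPM was 20 to 25 reads in N2 and 34 to 36 in VC3201, so the size of the fold is uncertain. Higher in VC3201 on this food were cpr-3, at 868 ± 8.21 against 243 ± 11.6 CPM (1.83, adjusted p = 3.14e-20, limma), and cpr-1, at 603 ± 9.58 against 470.2 ± 43.8 (0.36, adjusted p = 0.00032, limma). The cpr-4 libraries of the strains overlapped, at 398 ± 24.4 and 372 ± 19.9 CPM (0.09, 95% interval -0.0659 to 0.254), though the difference passed the test after rescaling of the libraries (0.27, adjusted p = 0.00318). The other 4 genes had no overlap between the strains, as for 80.5% of all genes. Of all genes tested 33.1% were higher and 44.8% lower in VC3201 here. Of the genes that differed, 42.5% were higher, and 52.6% after rescaling.

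Worms on both RNAi foods were then set against worms on cco-1 RNAi alone, to see how cathepsin B levels on cco-1 RNAi differ when elt-2 RNAi is added. The cco-1 transcript itself also differed between these foods, as given above. In N2, cpr-5 went from 939 ± 61.8 to 52.6 ± 3.38 CPM (libraries 55.3, 53.8 and 48.8), a fall of -4.13 (SE 0.0777, adjusted p = 3.57e-26, limma). The cpr-6 libraries held 7.15, 5.33 and 5.80 CPM against 186 to 193 (-4.76, SE 0.112, adjusted p = 5.68e-24, limma). The 3 others rose: cpr-3 to 256, 269.6 and 266 CPM (3.77, SE 0.0636, adjusted p = 3.25e-27), cpr-4 to 448, 481 and 432 CPM (3.63, SE 0.0781, adjusted p = 6.27e-25), and cpr-1 to between 326 and 335 CPM (2.57, SE 0.0843, adjusted p = 1.26e-20, limma). Of all genes 17.6% rose and 16.5% fell. No libraries overlapped for any of the 5, as for 47.8% of all genes.

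The same comparison in VC3201 gave 3 rises and 2 falls again, against 36.5% and 44.6% of all genes, and again no overlap for any of the 5, as for 82.5% of all genes. The fall of cpr-5 from 1019 ± 23.7 CPM to 0.312, 0.395 and 0.512 CPM was -9.50 on the log2 scale (SE 0.0777, adjusted p = 2.04e-35, limma), number 2 from the bottom of all genes. The cpr-6 transcript was at 0.0496, 0.209 and 0.151 CPM, or 1, 6 and 4 reads ranked back, against 219.7 ± 8.98 CPM (-7.60, SE 0.112, adjusted p = 1.43e-29, limma). Both genes were thus below 1 CPM in every VC3201 library of this group, where the pseudocount sets the size of a fold change. Over the alternatives the change ran from -10.99 to -7.57 for cpr-5 and from -9.92 to -5.45 for cpr-6. The rank of cpr-5 was taken from the main fit only. On both RNAi cpr-3 stood at 901, 922 and 892 CPM (4.62, SE 0.0636, adjusted p = 2.63e-30, limma). The rises were smaller for cpr-4, at 320.0, 399 and 342 CPM (1.12, SE 0.0781, adjusted p = 1.61e-13), and cpr-1, at 359, 409 and 395 CPM (0.57, SE 0.0843, adjusted p = 5.32e-07, limma).

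On top of elt-2 RNAi, cco-1 RNAi changed cpr-5 of N2 more than any other of the genes. It went from 4.56 ± 0.667 to 52.6 ± 3.38 CPM (SD, n = 3), 11.5-fold by the means and 3.28 on the log2 scale of CPM + 1 (SE 0.0777, adjusted p = 2.00e-22, limma), the largest rise of all 14561 genes in this comparison. In VC3201 the cpr-5 libraries of the 2 groups overlapped, at 0.310 to 0.494 CPM without and 0.312 to 0.512 CPM with cco-1 RNAi (0.03, 95% interval -0.130 to 0.189). The strains differed in this response by -3.25 (SE 0.110, adjusted p = 1.48e-18, limma), from -3.42 to -2.59 over the pseudocounts, and cpr-5 had the lowest value of all genes in this test. That contrast was added after the values had been seen, and in it 2 of the 5 passed the test, where 23.9% of all genes did. The other was cpr-4 (-0.46, SE 0.110, adjusted p = 0.0031, limma).

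The remaining genes moved less than cpr-5 of N2 when cco-1 RNAi was added to elt-2 RNAi. The cpr-1 transcript fell in both strains, from 470.2 ± 43.8 to 329.9 ± 4.74 CPM in N2 (-0.51, SE 0.0843, adjusted p = 5.23e-05, limma) and from 603 ± 9.58 to 388 ± 25.8 CPM in VC3201 (-0.64, SE 0.0843, adjusted p = 1.14e-06, limma). In VC3201 this fall was opposite to the rise of cpr-1 by 0.80 with cco-1 RNAi on control food. For cpr-4 the change was 0.28 in N2 (SE 0.0781, adjusted p = 0.01, limma), a call lost without replicate 2 of the elt-2 group (adjusted p = 0.0582) or replicate 2 of the combined group (0.0685), and -0.17 in VC3201 (adjusted p = 0.0964), which passed without replicate 2 of the combined group (0.0139). The intervals for cpr-3 were -0.0148 to 0.246 in N2 and -0.0701 to 0.191 in VC3201, with no overlap of libraries in either strain. For cpr-6 they were -0.0602 to 0.401 and -0.256 to 0.205, and the N2 difference passed without replicate 3 of the elt-2 group (0.34, adjusted p = 0.0242). In all, 2 of the 5 rose and 1 fell in N2, where 10.3% and 8.9% of all genes did, and 0 rose and 1 fell in VC3201, where 14.1% and 17.1% did. The libraries did not overlap for 4 of the 5 in N2 and 2 in VC3201, as for 36% and 46.6% of all genes.

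The interaction of the RNAi treatments, which is the cco-1 response on elt-2 RNAi minus that on control, passed the test for all 5 genes in each strain. In N2 it was positive for 4 and negative for 1, where 7.09% of all genes had a positive and 5.95% a negative one. It was 2.89 for cpr-4 (SE 0.110), 2.09 for cpr-6 (SE 0.159), 1.93 for cpr-5 (SE 0.110), 1.56 for cpr-1 (SE 0.119) and -1.23 for cpr-3 (SE 0.0900), with adjusted p from 7.36e-17 to 7.01e-11 (limma). For cpr-1, cpr-4 and cpr-6 these values set changes of -0.51, 0.28 and 0.17 on elt-2 RNAi against falls on control food, while for cpr-5 they set a rise of 3.28 against one of 1.35. With a pseudocount of 5 CPM the cpr-5 value was 1.25. In VC3201 the interaction was positive for cpr-6 alone (1.56, SE 0.159) and negative for cpr-5 (-2.28, SE 0.110), cpr-3 (-2.21, SE 0.0900), cpr-1 (-1.44, SE 0.119) and cpr-4 (-0.81, SE 0.110), with adjusted p from 1.61e-17 to 9.10e-07 (limma). On the elt-2 foods of VC3201 cpr-5 and cpr-6 were below 1 CPM, where the pseudocount shrinks any change. Their changes with cco-1 RNAi there were 0.029 and -0.025. These 2 interactions thus mostly restate the control-food responses of 2.31 and -1.59. Over the alternatives they ran from -2.35 to -2.21 and from 1.43 to 1.62, on few reads. There 21% of all genes had a positive and 20.1% a negative one. The positive share of those past the threshold was 51.1%, and 40% after rescaling.

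**Figure D3:**
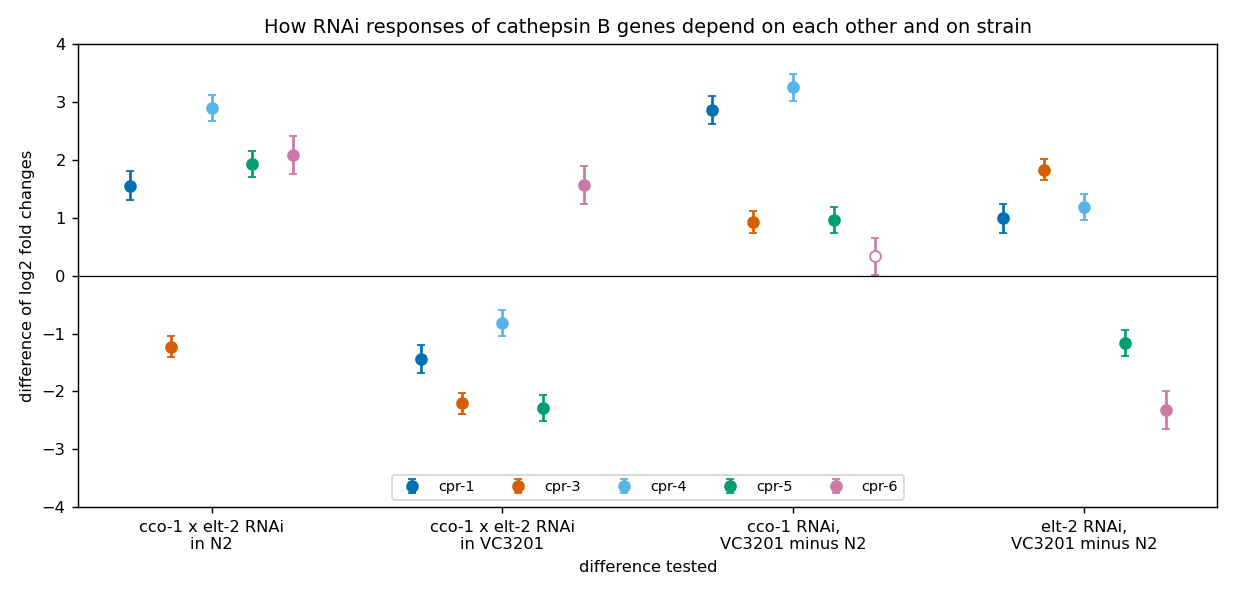
Differences of log2 fold changes for each cathepsin B gene: the interaction of cco-1 and elt-2 RNAi in each strain, and the VC3201 response minus the N2 response to each RNAi; bars are 95% intervals and the open point did not pass an adjusted p of 0.05. The interaction of cpr-1, cpr-4 and cpr-5 lies above 0 in N2 and below 0 in VC3201, and that of cpr-6 above 0 in both.

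On both RNAi foods together the strains stood far apart at cpr-5, with 52.6 ± 3.38 CPM in N2 and 0.406 ± 0.101 in VC3201 (-5.25, SE 0.0777, adjusted p = 5.96e-29, limma; -3.41 with a pseudocount of 5 CPM). That was number 8 from the bottom of all genes. The cpr-6 difference was -2.64 (SE 0.112, adjusted p = 2.32e-18) and ran from -4.76 with 0.1 CPM to -1.11 with 5 CPM added. For cpr-3 VC3201 was higher, at 905 ± 15.5 against 264 ± 7.13 CPM (1.78, SE 0.0636, adjusted p = 4.28e-20, limma). The cpr-4 transcript was lower, at 354 ± 40.7 against 454 ± 25.1 CPM (-0.36, SE 0.0781, adjusted p = 0.00013), and cpr-1 higher, at 388 ± 25.8 against 329.9 ± 4.74 CPM (0.23, SE 0.0843, adjusted p = 0.0143, limma), a call lost without replicate 2 of VC3201 (adjusted p = 0.0672). Here 2 of the 5 were higher and 3 lower, where 36.2% and 44.2% of all genes were. No libraries overlapped, as for 84% of all genes. Of the genes that differed, 45% were higher, and 51.7% after rescaling.

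Per kilobase of exon, the makeup of the cathepsin B transcripts changed more than their sum. The 5 genes summed to 1294 ± 43.7 CPM per kb in N2 on control and to between 932 ± 76.9 (VC3201 on control) and 1546 ± 23.8 (VC3201 on elt-2 RNAi) in the other groups (SD, n = 3). On control, cpr-6 made up 44.2% ± 0.888 of that sum in N2 and 56.4% ± 1.90 in VC3201. On cco-1 RNAi cpr-5 took over, with 75.9% ± 0.951 in N2 and 59.1% ± 1.12 in VC3201. On elt-2 RNAi cpr-1 led in N2 with 45.8% ± 2.83, then cpr-4 with 34.7% ± 2.95 and cpr-3 with 18.7% ± 0.278. In VC3201 cpr-3 led on elt-2 RNAi with 41.0% ± 0.279, from 0.525% ± 0.0687 on control, and on both RNAi with 49.6% ± 1.89. The cpr-4 gene led on both RNAi in N2, with 42.3% ± 0.984, and cpr-5 held 4.6% ± 0.252 there.

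**Figure D4:**
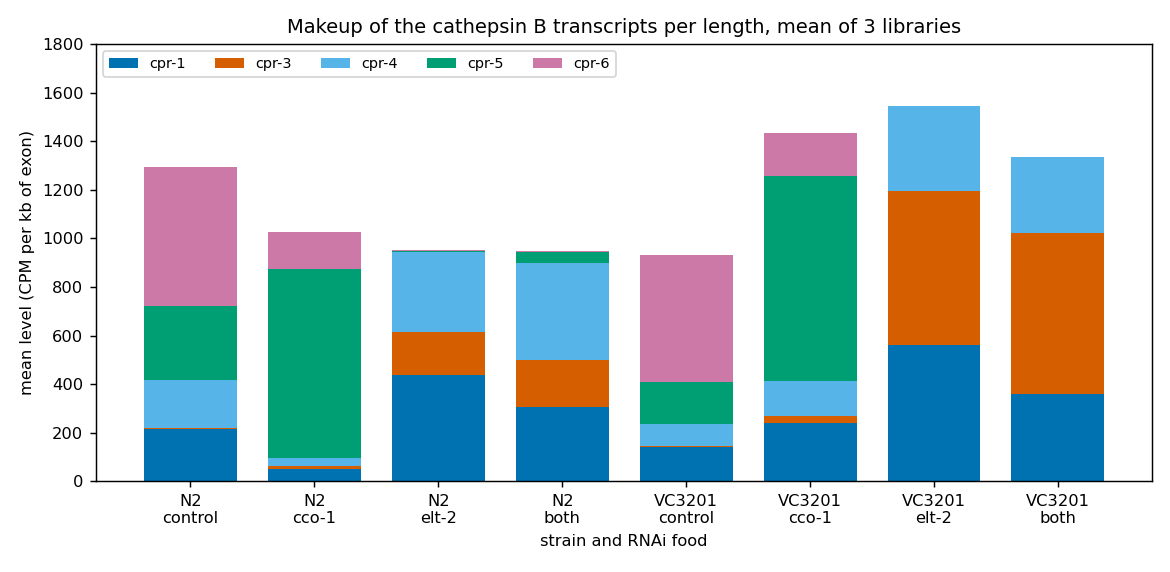
Mean level of each cathepsin B gene in CPM per kb of exon, stacked for the 8 groups (means of 3 libraries). The cpr-6 segment is largest on control, cpr-5 on cco-1 RNAi, and on the elt-2 foods cpr-1, cpr-3 and cpr-4 make up nearly the whole bar.

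On either side of cpr-5 lies a gene of the papain family, and these were looked at for their position after their values had been seen. On one side, 667 bases away on the same strand, W07B8.4 had group means of 0.22, 0.58, 0.042 and 0.091 CPM on control, cco-1, elt-2 and both RNAi in N2, and of 0.059, 1.43, 0.022 and 0.043 CPM in VC3201, too low to set beside cpr-5. On the other side is another cathepsin B gene, cpr-8. It starts 565 bases from cpr-5 at V:1134602-1139182 on the opposite strand, so the genes lie head to head. The cpr-8 level in N2 was 10.14, 10.7 and 10.8 CPM on control, 43.6, 39.8 and 40.2 on cco-1 RNAi, 3.04, 2.27 and 2.01 on elt-2 RNAi and 13.6, 14.6 and 13.7 on both. In VC3201 it was 7.50, 7.12 and 8.56 CPM, then 28.0, 29.2 and 26.99, then 0.905, 1.29 and 0.929, then 1.37, 1.10 and 1.44. Like cpr-5 it rose with cco-1 RNAi in both strains (1.87 and 1.74, adjusted p = 5.48e-15 and 8.62e-15, limma) and fell with elt-2 RNAi (-1.76 and -2.10, adjusted p = 4.34e-15 and 1.58e-17). On elt-2 RNAi, adding cco-1 RNAi raised it in N2 by 2.13 (SE 0.0996, adjusted p = 1.65e-15) while VC3201 showed 0.18 (adjusted p = 0.2), and the strains differed by -1.96 (SE 0.141, adjusted p = 3.93e-11, limma). The strain difference in its response to cco-1 RNAi on control food was -0.13 (SE 0.141, adjusted p = 0.478), against 0.96 for cpr-5. The interaction of the RNAi treatments in N2 was 0.26 for cpr-8 (SE 0.141, adjusted p = 0.256, limma), against 1.93 for cpr-5. In the list of papain-family genes and cystatins described below, which holds cpr-8, 19 genes were tested. When cco-1 RNAi was added to elt-2 RNAi in N2, 4 of them rose and 4 fell, where 10.3% and 8.9% of all genes did. The cathepsin L gene cpl-1 fell, from 805 to 513.5 CPM (-0.65, adjusted p = 1.085e-11, limma). Another that rose was R07E3.1, from 0.636 to 2.09 CPM (0.92, adjusted p = 6.52e-08, limma). In VC3201 it stood at 0.160 and 0.196 CPM, and the strains differed by -0.88 (adjusted p = 4.44e-05, limma). Both VC3201 means lie below the pseudocount of 1 CPM, which shrinks any change there, so the size of this difference depends on it.

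Other genes of the papain family and 2 cystatins, their inhibitors, were taken as a list, 19 of them tested. With elt-2 RNAi 4 rose and 11 fell in N2 (median -0.82, against 0.021 over all genes), and 4 rose and 11 fell in VC3201 (median -0.68, against -0.18). Of all genes, 26.2% rose and 21.8% fell in N2 and 36.4% and 49.4% in VC3201. The share of the list that fell was thus nearer to that of all genes in VC3201 than in N2. In VC3201 the share of the list that rose was below that of all genes. The 4 with the smallest p-values in N2 all fell: Y40H7A.10 (-4.93), the cathepsin Z gene cpz-2 (-4.02), R07E3.1 (-4.40) and F32H5.1 (-3.40), with adjusted p up to 2.50e-22 (limma). With cco-1 RNAi 5 rose and 7 fell in N2 (median 0.0097), and 9 rose and 5 fell in VC3201 (median 0.21, against -0.061), where 17.5% and 16.4% of all genes did in N2 and 26.9% and 37.1% in VC3201. Among those that fell in N2 were the cathepsin Z gene cpz-1, from 448 to 112.6 CPM, and the cathepsin L gene cpl-1, from 1736 to 915 CPM (adjusted p = 1.89e-20 and 1.07e-15, limma). Another cathepsin B gene of the table, cpr-2, did not pass the filter and is no member of the 5. F57F5.1, which the annotation also names cpr-9, fell on elt-2 RNAi in VC3201 from 611 to 36.0 CPM (-4.05, adjusted p = 4.93e-28, limma) and was lower there than in N2 on that food by -2.41 (adjusted p = 6.62e-22).

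**Figure D5:**
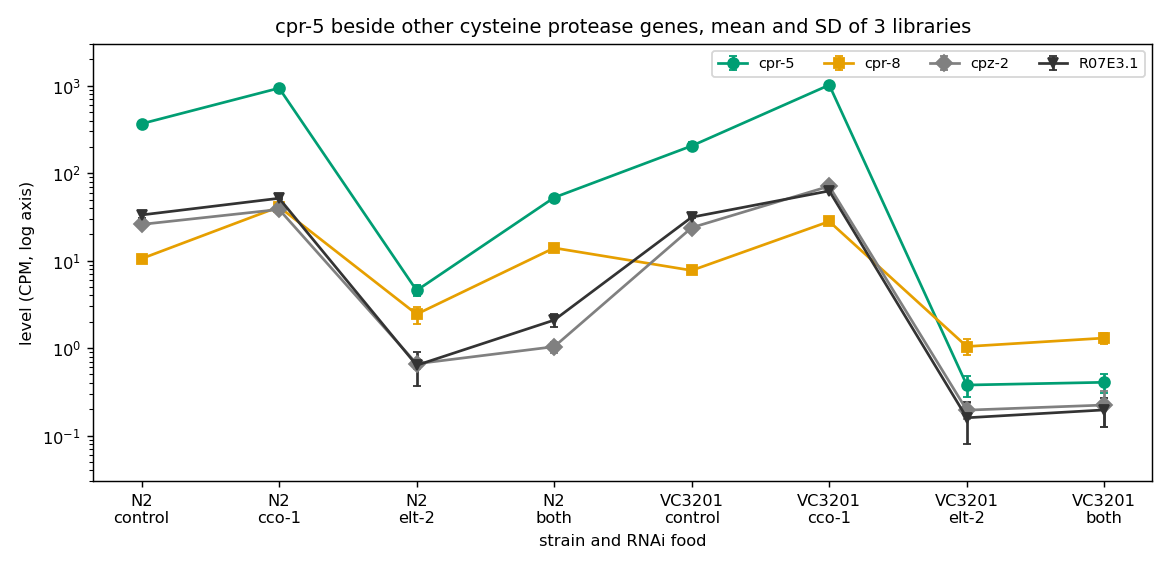
Mean level in CPM (log axis) of cpr-5, its neighbour cpr-8 and the related protease genes cpz-2 and R07E3.1 in the 8 groups; bars are the SD of 3 libraries, lines only join groups, and the 3 other genes were picked for display after their values were seen. All 4 are lowest on the VC3201 elt-2 foods, and on both RNAi in N2 cpr-5 and cpr-8 stand at 52.6 and 13.97 CPM, above their levels on elt-2 RNAi alone. The means of R07E3.1 (2.09 against 0.636 CPM) and cpz-2 (1.04 against 0.662 CPM) are also higher there than on elt-2 RNAi alone.

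The aspartyl cathepsins, the other large family of gut proteases, and the V-ATPase, which pumps protons into lysosomes, were counted beside the cathepsin B genes. Of 12 aspartyl cathepsin genes tested, 4 rose and 7 fell with elt-2 RNAi in N2 (median -0.68) and 3 rose and 9 fell in VC3201 (median -1.61), beside the same shares of all genes and medians of 0.021 and -0.18. In VC3201, asp-2 fell from 470 to 0.349 CPM and asp-13 from 166 to 0.215 CPM (adjusted p = 2.11e-35 and 8.81e-31, limma), near the levels of cpr-5 and cpr-6 in those libraries. Among those that rose in N2 was asp-12, from 10.4 to 191 CPM (4.08, adjusted p = 6.79e-25, limma). Of 21 V-ATPase genes, 13 rose and 0 fell with cco-1 RNAi in N2 (median 0.20) and 17 rose and 2 fell in VC3201 (median 0.28), against 17.5% and 16.4% of all genes in N2 and 26.9% and 37.1% in VC3201. With elt-2 RNAi 8 rose and 2 fell in N2 and 14 rose and 4 fell in VC3201, against 26.2% and 21.8%, and 36.4% and 49.4%, of all genes. The intestinal subunit gene vha-6 fell in both, from 221 to 61.3 CPM in N2 while in VC3201 it went from 215 to 9.01 CPM (adjusted p = 2.30e-18 and 4.34e-28, limma).

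Among 9097 genes whose mean reached 10 CPM in some group, the genes nearest in pattern to each cathepsin B gene were found by the root mean square difference of the centred log2 group means over the 8 groups, where 0 is an identical pattern. By this measure cpr-1 and cpr-4 differed from each other by 0.36, and from their nearest other genes, ugt-44, the galectin gene lec-8 and D2063.1, by 0.45 to 0.49 and 0.53 to 0.61. The pattern of cpr-3 was matched most closely, by B0024.4 at 0.19, followed by C08E8.4 and F46C5.1 at 0.44 and 0.46. For cpr-6 the nearest were T21H3.1, asp-2 and asp-13 at 0.74 to 0.86. None was as close to cpr-5, whose nearest genes, T21H3.1, F13D12.6 and folt-2, were 1.006 to 1.30 away. Its neighbour cpr-8 was not among them. The distance between cpr-5 and cpr-6 was 1.56, and between cpr-3 and cpr-6 6.39. The libraries behind these patterns are shared, so the distances are descriptive.

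In the authors' deposited table the list of genes raised by cco-1 RNAi held cpr-3 and cpr-5, and the list of 517 genes called ELT-2-dependent held cpr-5 but not cpr-3. None of the 5 genes was on the list of 719 called ATFS-1-dependent. The genes cpr-1, cpr-4 and cpr-6, which fell with cco-1 RNAi in N2, were on none of these lists. Whether a gene that falls could be listed was not examined here, so their absence is no measure of the strain differences above. The authors' deposited table gave log2 fold changes with cco-1 RNAi of 1.35 in N2 and 2.32 in VC3201 for cpr-5, and of 1.47 and 2.43 for cpr-3. For elt-2 RNAi added to cco-1 RNAi in N2, the authors' deposited table gave -4.16 for cpr-5 and 3.84 for cpr-3. Several comparisons above share their control libraries, so their values for a gene are not independent of each other.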

How the data were processed

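RNA-seq of 24 whole-worm libraries (polyA-enriched, BGISeq500, per the labels) was read from the authors' gene table. The deposited CPM values are normalized counts, per the authors' key sheet. They were taken as quantile-normalized from the values, since every library summed to 1000373 and sorted libraries shared many values. STAR 2.73a, edgeR 3.24.3 and WBcel235 are named in the submitters' processing notes. Read counter and annotation release: not given in the sources used here. Log2 fold changes, p-values and dependency scores deposited by the authors were used only to describe their lists.

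A gene was tested if its mean reached 1 CPM in any group (14561 genes). Values were fitted as log2(CPM + 1) to the 24 libraries together, each of the 8 groups with its own mean (16 residual degrees of freedom), by limma 3.58.1 under R 4.3.3, empirical Bayes with intensity trend, two-sided, with Benjamini-Hochberg adjustment at 0.05; the fit was tested on simulated data. Reads behind low values were ranked back from tied values, the lowest tied value being taken as 0 reads; 1 CPM was 8 to 39 reads, and Poisson intervals cover counting error only. Positions, exon lengths and neighbours came from the Ensembl WBcel235 annotation.

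The members and gene lists were chosen with earlier results of these data known. Genes named were the members, the targeted genes, up to 4 called members of a list with the smallest p-values in a comparison, and the 3 nearest patterns to each member. Promoter and protein sequences were not analysed here. Alternatives were other pseudocounts, no filter, rescaled libraries, a fit of only the groups compared, a replicate block, and each library left out in turn.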

Additional observations from a re-analysis of the deposited data

Results flagged for a closer look

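The responses of the cathepsin B genes to an RNAi food differed between the strains, by a direct test of the difference (VC3201 minus N2, log2 scale of CPM + 1, limma). In the response to cco-1 RNAi the difference was 2.86 for cpr-1, 3.25 for cpr-4, 0.92 for cpr-3 and 0.96 for cpr-5. In the response to elt-2 RNAi it was 0.99 for cpr-1, 1.83 for cpr-3, 1.19 for cpr-4, -1.17 for cpr-5 and -2.32 for cpr-6. In the response to cco-1 RNAi on top of elt-2 RNAi it was -0.46 for cpr-4 and -3.25 for cpr-5. In N2 all 3 libraries on cco-1 RNAi were below all control libraries for cpr-1 and cpr-4, and in VC3201 all 3 were above.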

How the results depend on the processing

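Of 85 results on the 5 genes, 73 kept their direction and their side of the threshold under every alternative run, and 12 did not. Of 1255 values computed, 20 changed a call or a sign, none of them with the replicate block or without the filter. The counts over all genes stayed within 1.5 times of the main count in all 251 recomputed. The labels do not say what a replicate number shares, and the correlation of deviations ran from -0.0849 to 0.15 over 36 pairs, with every pair over 0.1 in 0 of 12 comparisons, so the numbers were not taken to pair the libraries. As a hint from the data that they may share something, 16 of 24 libraries were nearest to their own number, where 8 would be if numbers carried nothing. The replicate block gave 4930 genes in place of 4926 with cco-1 RNAi in N2. With a pseudocount of 5 CPM, cpr-6 passed in VC3201 against N2 on cco-1 RNAi (0.20) and in the strain difference of the cco-1 response (0.33), and the strain difference of the cpr-5 elt-2 response became 0.0027. Fitting only the groups compared gave the same 2 cpr-6 results at 0.21 and 0.33. Rescaling the libraries gave -0.010 for cpr-3 in VC3201 against N2 on control, and 0.27 for cpr-4 on elt-2 RNAi. Leaving out 1 library gave ranges of -0.062 to 0.077 for cpr-3 between strains on control and 0.19 to 0.28 for cpr-1 between strains on both RNAi. For both against elt-2 RNAi the ranges were 0.24 to 0.32 (cpr-4) and -0.048 to 0.34 (cpr-6) in N2, and -0.26 to -0.10 (cpr-4), -0.024 to 0.089 (cpr-5) and -0.071 to 0.031 (cpr-6) in VC3201. The range was -0.37 to 0.023 for the strain difference of cpr-6 in the cco-1 response on elt-2 RNAi. The cause of these changes was not tested. Below 1 CPM, as for cpr-5 and cpr-6 in VC3201 on the elt-2 foods, few reads and the pseudocount limit what a fold change can say.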
